A study of Saccharomyces cerevisiae with 6 samples.

Results

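The genes described here are 9 genes of the phosphate starvation (PHO) response of budding yeast, *PHO5*, *PHO11*, *PHO12*, *PHO84*, *PHO89*, *PHO8*, *PHO3*, *SPL2* and *VTC3*, out of 6260 annotated genes that held reads outside the ribosomal DNA (rDNA). They were chosen by name from genes described as regulated by the transcription factor Pho4, with their measured read levels in WT and *rpa12Δ* already known. Those values are therefore given as a description, with no test. The reads come from native elongating transcript sequencing (NET-seq) of RNA polymerase I (Pol I), which maps the 3′ end of the RNA held in each elongation complex after immunoprecipitation. In both strains the complexes were pulled down through an HA tag on Rpa135, a large subunit of Pol I. The WT strain is the original tagged strain, and the *rpa12Δ* strain is a derivative from which *RPA12*, the gene of the A12.2 subunit, was deleted completely. Both were grown to early log phase in YEPD, a rich medium with no phosphate limitation described, and 3 libraries were made from each. The sources used here do not give the mating type or ploidy of either strain, nor whether the derivative is 1 clone.

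The PHO genes are normally transcribed by RNA polymerase II (Pol II), so the reads in them are RNA that came down with a Pol I immunoprecipitate. No untagged strain is among the 6 libraries, and the share of these reads that was held by Pol I was not tested. In budding yeast, Pho4 acts with Pho2 at PHO promoters, the cyclin and kinase pair Pho80 and Pho85 phosphorylates Pho4 when phosphate is plentiful and keeps it out of the nucleus, and Pho81 inhibits that pair when phosphate runs short. The targets bring phosphate in, release it from other molecules or store it. *PHO84* and *PHO89* encode high-affinity phosphate transporters, *PHO5*, *PHO11* and *PHO12* encode secreted acid phosphatases, *PHO8* encodes the alkaline phosphatase of the vacuole, *VTC3* encodes a subunit of the vacuolar complex that makes polyphosphate, and *SPL2* encodes a small protein that acts on the low-affinity transporters. *PHO3*, next to *PHO5*, encodes an acid phosphatase that is known as constitutive and is repressed by thiamine.

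The levels below are in RPM, the number of reads whose RNA 3′ end lay within the gene on the strand of its transcript, per 1000000 reads that the same library held outside the rDNA. The WT libraries held 1165143 to 1662542 such reads and the *rpa12Δ* libraries 4674055 to 4859327, so that 3 reads, taken as the floor, equal 1.804 to 2.57 RPM in WT and 0.617 to 0.642 RPM in *rpa12Δ*. These limits cover counting error only, since PCR copies are not independent molecules, and 15.7 to 23.9% of the reads outside the rDNA were distinct intervals. Within the 9 genes that share was higher. Over the 6 libraries it was 54.5% for *SPL2*, 83.5% for *VTC3* and 90.5 to 97.2% for the others. *RPA12* itself held 8, 9 and 3 reads in WT and 0, 0 and 1 read in *rpa12Δ*. Genes that mark mating type separated the strains. All 6 a-specific genes were higher in every *rpa12Δ* library than in every WT library. For the 2902 genes with a mean of at least 10 RPM, which include only 3 of these 6, that share was 10.1%. The share among genes under that level was not computed. *STE2* (the alpha-factor receptor) stood at 3.40 RPM in WT and 78.2 RPM in *rpa12Δ*, and *MFA1* and *MFA2*, the a-factor genes, at 0 reads in WT. *ASG7* held 0 reads in WT and 2, 5 and 3 in *rpa12Δ*. Its *rpa12Δ* mean of 0.706 RPM lies under the WT floor, so that a difference was not resolved for it. The 4 alpha-specific genes overlapped between the strains, with *SAG1* at 12.6 and 9.36 RPM and *STE3*, the a-factor receptor, at 1.81 and 0.487 RPM, while *MF(ALPHA)1* and *MF(ALPHA)2* were at or near 0 in both. This difference and the deletion of *RPA12* cannot be told apart in any comparison of the strains.

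In YEPD, the 9 genes did not all differ between the strains in the same direction. The acid phosphatase genes *PHO11* and *PHO12*, summed because their reads could rarely be told apart, were 4.06-fold higher in *rpa12Δ*. The transporter gene *PHO84* was 1.33-fold higher and *SPL2* 1.40-fold higher. *PHO5*, the main acid phosphatase gene, was 1.90-fold lower, *PHO8* 1.88-fold lower and *PHO3* 1.39-fold lower, whereas *PHO89* and *VTC3* overlapped between the strains. Every *rpa12Δ* library lay above every WT library for 4 of the 9 genes, beside 10.1% of the 2902 genes tested, and below for 3 of the 9, beside 33.5% of the genes tested. Nothing is read from these counts, because the strain contrast was used in choosing the genes. All 9 genes passed the filter of a mean of at least 10 RPM, *PHO89* through its *rpa12Δ* level alone. Their median log2 difference, as fitted on log2(RPM + 1), was 0.42, and the median over all genes tested was −0.26. Measured from that general shift, the log2 differences were 2.27 for *PHO11*, 2.25 for *PHO12*, 1.40 for *PHO89*, 0.72 for *SPL2*, 0.67 for *PHO84*, 0.40 for *VTC3*, −0.19 for *PHO3* and −0.65 for both *PHO5* and *PHO8*. In these bulk libraries, fewer cells that express a gene and less RNA of it per cell cannot be told apart.

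**Figure D1:**
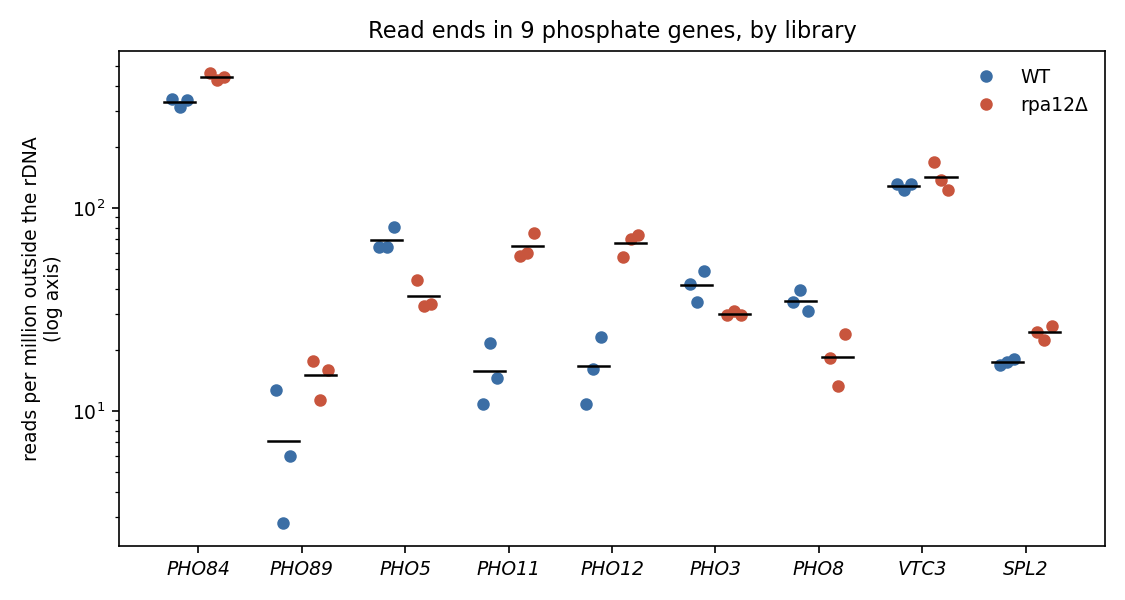
RPM (log axis) in each of the 9 genes, with 1 point for each of the 3 WT (blue) and 3 *rpa12Δ* (red) libraries and a black line at the strain mean. *PHO11*, *PHO12*, *PHO84* and *SPL2* show every red point above every blue one, *PHO5*, *PHO8* and *PHO3* every red point below, and *PHO89* and *VTC3* overlap.

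Among the transporter genes, *PHO84* (YML123C, chromosome XIII, 24037 to 25800, minus strand, R64) encodes the main high-affinity carrier, which brings in phosphate with protons. It held 343, 314 and 338 RPM in WT replicates 1 to 3, and 460, 428 and 439 RPM in *rpa12Δ* replicates 1 to 3. The replicates lay close together in both strains, and the lowest *rpa12Δ* library stood well above the highest WT library. The means were 332 ± 15.7 RPM for WT and 442 ± 16.4 RPM for *rpa12Δ* (SD, n = 3), a log2 difference of 0.42 (SE 0.12). The higher level was spread along the gene, with 16 of its 17 complete 100-nt bins higher on average in *rpa12Δ*. The position with the most reads inside the gene, nucleotide 976 of the coding sequence, held 4.02 ± 2.95 RPM for WT and 9.19 ± 6.28 RPM for *rpa12Δ* (SD, n = 3), which overlapped.

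A single position 20 nt before the first base of *PHO84* stood far above everything within the gene. It took 2576 of the 2612 reads in the 100 nt before the gene (98.6%). It held 143, 92.4 and 104.7 RPM in WT and 138, 164 and 138 RPM in *rpa12Δ*, so that the strains overlapped there, and it amounted to 29.5 to 41.8% of the reads within the gene in the same library. The reads at this position were short and alike. Their median length was 21 nt, 81.1% of them shared the 2 commonest other ends, and each library held only 11 to 19 distinct intervals there. Their median mapping quality, the aligner's score for how surely a read was placed, was 6 on a scale that reaches 60, against 47 for the reads within the gene. These reads lie outside the gene and are not part of its level.

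*PHO89* (YBR296C, chromosome II, 796798 to 798522, minus strand) encodes the other high-affinity carrier, which uses sodium. It was the lowest of the 9 genes, with 12.6, 2.80 and 6.01 RPM in WT and 17.7, 11.3 and 15.9 RPM in *rpa12Δ*. WT replicate 1 lay above *rpa12Δ* replicate 2, so the strains overlapped. The WT values rest on 21, 4 and 7 reads. The means were 7.15 ± 5.01 RPM for WT and 15.0 ± 3.28 RPM for *rpa12Δ* (SD, n = 3), a log2 difference of 1.14 (SE 0.38) that became 1.61 without WT replicate 1 and 0.69 without WT replicate 2. In 16 of 17 complete bins of the gene the *rpa12Δ* mean was the higher one. The bins held 0 to 0.920 RPM in WT and 0.492 to 1.54 RPM in *rpa12Δ*. All of these lie under the WT floor of 1.804 to 2.57 RPM, so that single bins were not resolved.

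Among the phosphatase genes, *PHO11* (YAR071W, chromosome I, 225460 to 226863, plus strand) and *PHO12* (YHR215W, chromosome VIII, 552099 to 553502, plus strand) lie near the ends of their chromosomes and are near-identical copies. *PHO11* held 10.8, 21.7 and 14.6 RPM in WT and 58.0, 60.1 and 75.6 RPM in *rpa12Δ*. *PHO12* held 10.8, 16.1 and 23.2 RPM in WT and 57.2, 70.2 and 73.9 RPM in *rpa12Δ*. For both genes the lowest *rpa12Δ* library stood far above the highest WT library. Summed over the pair, the levels were 21.7, 37.8 and 37.8 RPM in WT and 115, 130.3 and 149 RPM in *rpa12Δ*, with means of 32.4 ± 9.31 and 132 ± 17.1 RPM (SD, n = 3) and a log2 difference of 2.02. These were the largest differences among the 9 genes, on either side, at the 99.8th percentile of all genes tested for each copy. All 14 complete bins of each gene were higher on average in *rpa12Δ*.

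Most reads of this pair could not be assigned to 1 copy. A mapping quality of 0, the score of reads that fit several places, was given to 94.4% of the 985 *PHO11* reads and 89.4% of the 1022 *PHO12* reads over the 6 libraries. The rule by which the aligner placed such reads is not given in the sources used here, and the near equality of the 2 genes' levels is therefore not a measurement of each copy. Reads of a mapping quality of at least 10 were left in 42 cases in *PHO11* and in 92 cases in *PHO12*. By library they numbered 0, 1 and 1 in WT and 10, 14 and 16 in *rpa12Δ* for *PHO11*, and 2, 1 and 2 in WT and 29, 25 and 33 in *rpa12Δ* for *PHO12*. Both copies thus had more such reads in *rpa12Δ*, also relative to the library totals, with log2 differences of 1.50 for *PHO11* and 1.78 for *PHO12* when RPM was computed from reads of that quality alone. They fell at a few stretches of the genes. Beyond nucleotide 200 and up to nucleotide 400 there were 1 in WT and 14 in *rpa12Δ* for *PHO11*, and 1 and 21 for *PHO12*. Beyond nucleotide 1000 and up to nucleotide 1200 there were 1 and 22 for *PHO11* and 1 and 21 for *PHO12*, and in the rest of the gene, up to its last base, there were 0 and 4 for *PHO11* and 3 and 45 for *PHO12*. The stretch just behind *PHO12* was better resolved, as 86.7% of the 83 reads in the first 100 nt after the gene had a quality of at least 10. Those 100 nt held 1.27 ± 1.12 RPM for WT and 5.47 ± 2.64 RPM for *rpa12Δ* (SD, n = 3), with no overlap, whereas the same stretch behind *PHO11* held 4 reads in all.

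**Figure D2:**
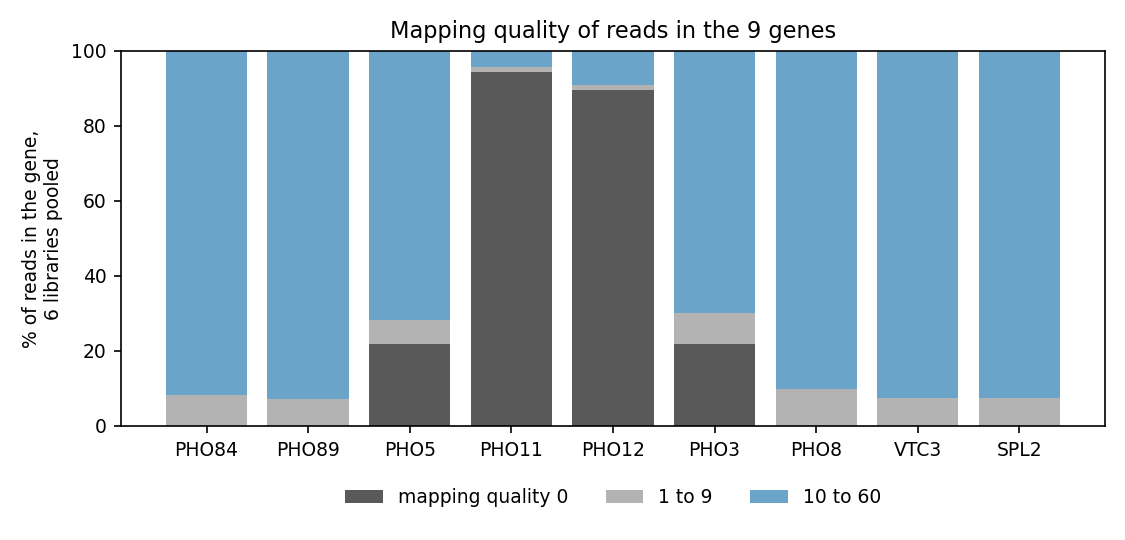
Share of reads in each of the 9 genes (percent, 6 libraries pooled) with a mapping quality of 0 (dark grey), 1 to 9 (light grey) and 10 to 60 (blue). *PHO11* and *PHO12* are almost wholly dark at 94.4% and 89.4%, *PHO5* and *PHO3* carry 21.7% and 21.8%, and the other 5 genes have next to none.

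Before both genes of the pair lay a short cluster of reads that was higher in WT. The 100-nt bin that begins 400 nt before the gene held 10.6 ± 4.36 RPM in WT and 3.98 ± 2.02 RPM in *rpa12Δ* for *PHO11*, and 35.2 ± 11.5 RPM in WT and 7.18 ± 3.95 RPM in *rpa12Δ* for *PHO12* (SD, n = 3). WT was the higher strain in both bins, with no overlap. Of these reads, 96.1% before *PHO11* and 93.3% before *PHO12* had a mapping quality of 0, and their median lengths were 21 and 22 nt, so that the place they came from is not settled. They are not counted in the genes.

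*PHO5* (YBR093C, chromosome II, 429548 to 430951, minus strand) encodes the acid phosphatase that makes up most of the secreted activity of starved cells and is the classic reporter of the pathway. Its strains differed in the opposite direction from those of *PHO11* and *PHO12*. *PHO5* held 64.4, 64.4 and 80.7 RPM in WT and 44.2, 32.7 and 33.5 RPM in *rpa12Δ*. The highest *rpa12Δ* library lay below the lowest WT library. The means were 69.8 ± 9.41 RPM for WT and 36.8 ± 6.43 RPM for *rpa12Δ* (SD, n = 3), a log2 difference of −0.91 (SE 0.18). The lower level ran along the gene, with 13 of 14 complete bins lower on average in *rpa12Δ*. A mapping quality of 0 was given to 21.7% of the *PHO5* reads, and with only reads of a quality of at least 10 the log2 difference was −1.01. With every distinct interval counted once it was −0.37, beside a median over all genes that this count moved to 0.17.

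*PHO3* (YBR092C, chromosome II, 427698 to 429101, minus strand) lies directly downstream of *PHO5* on the same strand and has a coding length equal to it, 1404 nt. It held 42.1, 34.3 and 48.9 RPM in WT and 29.6, 31.0 and 29.7 RPM in *rpa12Δ*. The *rpa12Δ* libraries were nearly equal and lay just below the lowest WT library. The means were 41.8 ± 7.31 and 30.1 ± 0.779 RPM (SD, n = 3), a log2 difference of −0.44 (SE 0.18), which is close to the general shift of −0.26. With every distinct interval counted once it was 0.062, beside a median over all genes that this count moved to 0.17. The sign thus changed with the count, while *PHO3* lay below the median of all genes on both. Of the *PHO3* reads 21.8% had a mapping quality of 0, much as in *PHO5*.

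*PHO8* (YDR481C, chromosome IV, 1418550 to 1420250, minus strand) encodes the alkaline phosphatase of the vacuole. It held 34.3, 39.2 and 30.9 RPM in WT and 18.3, 13.3 and 24.0 RPM in *rpa12Δ*. No library of 1 strain reached into the range of the other. The means were 34.8 ± 4.18 and 18.5 ± 5.36 RPM (SD, n = 3), a log2 difference of −0.91 (SE 0.22), and 15 of 17 complete bins were lower on average in *rpa12Δ*. None of its 413 reads had a mapping quality of 0.

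**Figure D3:**
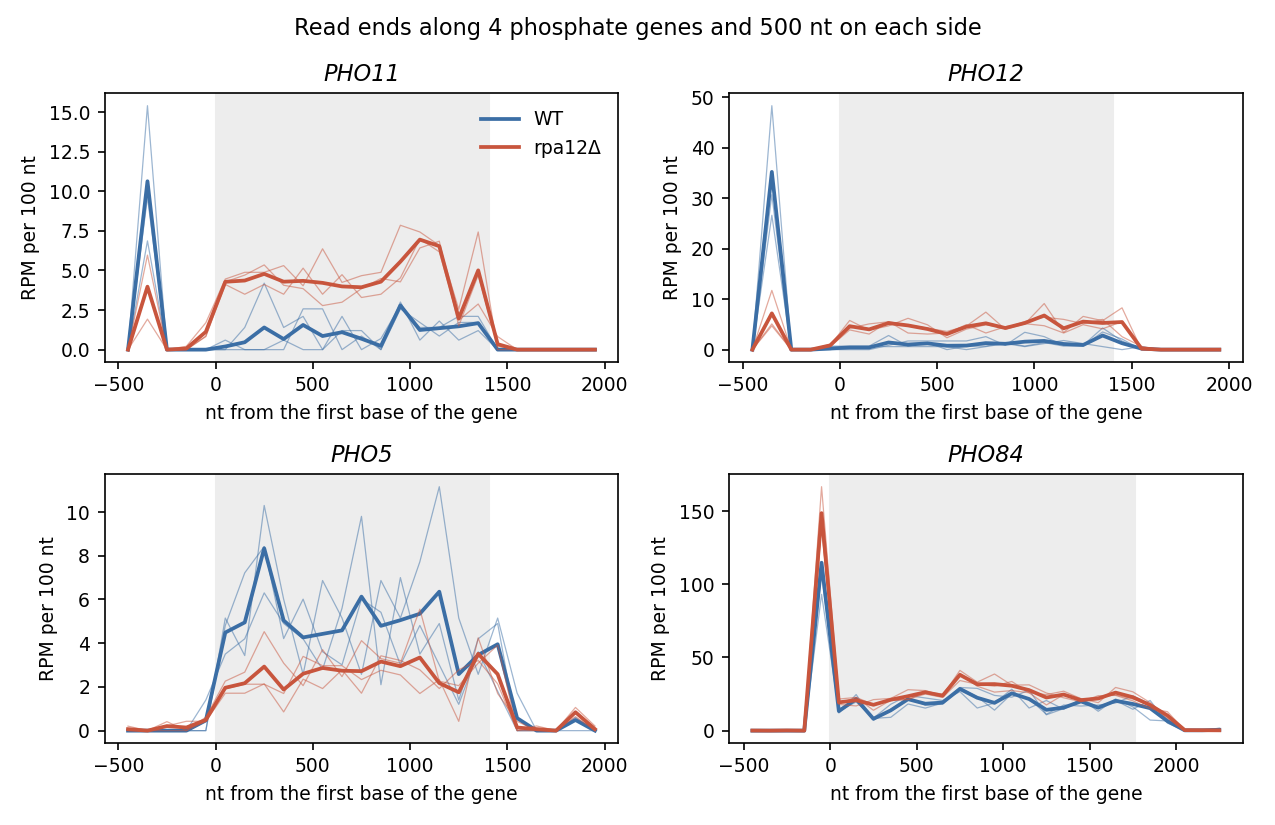
RPM in 100-nt bins (vertical axis) along *PHO11*, *PHO12*, *PHO5* and *PHO84* and 500 nt on each side (horizontal axis, nt from the first base of the gene), with the coding span shaded, thin lines for single libraries and thick lines for the means of WT (blue) and *rpa12Δ* (red). The red line lies above the blue one throughout *PHO11* and *PHO12* and below it in 13 of 14 complete bins of *PHO5*, and the peak just before *PHO84* is the position 20 nt ahead of the gene.

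Among the genes of storage and transporter control, *VTC3* (YPL019C, chromosome XVI, 514511 to 517018, minus strand) encodes a regulatory subunit of the polyphosphate polymerase. It held 131, 122 and 131 RPM in WT and 169, 137 and 122 RPM in *rpa12Δ*. The *rpa12Δ* libraries spread widely, and the lowest of them lay within the WT range. The means were 128 ± 5.43 and 143 ± 24.1 RPM (SD, n = 3), a log2 difference of 0.14 (SE 0.15). A few positions carried much of its signal. Nucleotide 2029 of the coding sequence held 11.5 ± 3.92 RPM in WT and 12.8 ± 7.53 RPM in *rpa12Δ*, and nucleotides 1680 and 1681 together held 19.6 ± 8.09 and 16.0 ± 4.97 RPM (SD, n = 3), so that neither place separated the strains.

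*SPL2* (YHR136C, chromosome VIII, 374654 to 375100, minus strand) is the shortest of the 9 genes, with a coding length of 447 nt. It held 16.8, 17.5 and 18.0 RPM in WT and 24.5, 22.5 and 26.3 RPM in *rpa12Δ*. The WT libraries were nearly equal, and all *rpa12Δ* libraries lay above them. The means were 17.5 ± 0.592 and 24.4 ± 1.93 RPM (SD, n = 3), a log2 difference of 0.46 (SE 0.19). Most of that difference lay at 1 position. Nucleotide 241 of the coding sequence took 311 of the 422 *SPL2* reads (73.7%), with 12.03 ± 0.836 RPM for WT and 18.3 ± 1.35 RPM for *rpa12Δ* (SD, n = 3). The reads ending there had a median mapping quality of 60 and a median length of 31 nt. Without that position *SPL2* held 5.42 ± 0.781 RPM for WT and 6.17 ± 0.712 RPM for *rpa12Δ* (SD, n = 3), a log2 difference of 0.16 with overlapping libraries. In none of the other 8 genes did the highest position hold more than 9.03% of the reads, the share at nucleotide 2029 of *VTC3*.

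Per length, the order of levels changed between the strains. In WT the levels in RPM per kb of coding length were 188 ± 8.89 for *PHO84*, 51.1 ± 2.17 for *VTC3*, 49.7 ± 6.70 for *PHO5*, 39.1 ± 1.32 for *SPL2*, 29.8 ± 5.21 for *PHO3*, 20.5 ± 2.46 for *PHO8*, 11.9 ± 4.41 for *PHO12*, 11.2 ± 3.93 for *PHO11* and 4.14 ± 2.91 for *PHO89* (SD, n = 3). Of the neighbours in this order, *VTC3* and *PHO5* overlapped, and so did *PHO12* and *PHO11*. In *rpa12Δ* the levels per kb were 251 ± 9.28 for *PHO84*, 56.8 ± 9.59 for *VTC3*, 54.6 ± 4.31 for *SPL2*, 47.8 ± 6.23 for *PHO12*, 46.0 ± 6.82 for *PHO11*, 26.2 ± 4.58 for *PHO5*, 21.5 ± 0.555 for *PHO3*, 10.9 ± 3.15 for *PHO8* and 8.69 ± 1.90 for *PHO89* (SD, n = 3). Here each of the genes from *VTC3* to *PHO11* overlapped with its neighbour, as did *PHO8* and *PHO89*. *PHO84* stayed first in both strains, while *PHO11* and *PHO12* lay below *PHO5*, *PHO3* and *PHO8* in WT and above all of them in *rpa12Δ*. The places of *PHO11* and *PHO12* are not those of each copy, as 94.4% and 89.4% of their reads had a mapping quality of 0. That of *SPL2* rests on nucleotide 241, which took 73.7% of its reads.

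The antisense strand was nearly silent in 7 of these genes and held some reads in *PHO5* and *PHO3*. *PHO5* held the most antisense reads, 4, 2 and 3 in WT and 22, 19 and 18 in *rpa12Δ*, or 2.13 ± 0.635 and 4.14 ± 0.359 RPM (SD, n = 3). Of these, 5 in WT and 23 in *rpa12Δ* lay beyond nucleotide 700 and up to nucleotide 800 of the gene. Pooled over the libraries of a strain, *PHO5* held 9 antisense beside 293 sense reads in WT, and 59 beside 526 in *rpa12Δ*. *PHO3* held 4 antisense reads in WT and 12 in *rpa12Δ*, and the other 7 genes held 3 or fewer over all libraries. Over all coding genes 97.9 to 98.3% of the reads lay on the sense strand. That share was larger than in *PHO5* in both strains, though in WT this rests on 9 antisense reads.

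The wider pathway was read from a list of 26 other genes of phosphate signalling, transport and storage, in which 18 passed the filter and could be tested. None was higher and 4 were lower in *rpa12Δ* by limma with a Benjamini-Hochberg adjusted p under 0.05, and 14 were not called. At an unadjusted limma p under 0.05, 2 were higher, *VTC1* and *VTC4*, and 5 were lower, the 4 called genes and *PHO87*. Of all 2902 genes tested, 1210 passed that threshold in either direction. By voom 0 pathway genes were higher and 4 lower, beside 135 and 725 of all genes tested. The count of 4 fell to 2 without WT replicate 3 or without *rpa12Δ* replicate 2, and was 8 without *rpa12Δ* replicate 1. Those 3 fits called 645 of 2867, 531 of 2958 and 1242 of 2900 genes. In the main fit, 5.38% of all genes tested were called higher and 25.7% lower. Both splits depended on the scaling. Of the pathway genes, 4 were higher and 2 lower with reads in protein-coding genes as denominator, 3 and 2 with median-of-ratios size factors, 2 and 1 with all reads as denominator, and 4 and 2 with distinct intervals counted once. Over all genes, the 156 higher and 747 lower became 522 and 565, 504 and 484, 427 and 225, and 845 and 445 under the same 4 settings. The filter was applied anew in each setting, so the genes tested were not the same ones. In that order, 24, 18, 9 and 24 pathway genes were tested, and 5132, 2888, 1237 and 5270 of all genes. *VTC1* and *VTC4* were among the genes called higher in each of these 4, and *GDE1* among those called lower in each. The median log2 difference of the 18 genes was −0.23, near the −0.26 of all genes tested. Of the 4 regulators tested 1 was lower, of the 6 transporter genes 1, of the 7 genes of polyphosphate 1, and the only other target tested was lower too.

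**Figure D4:**
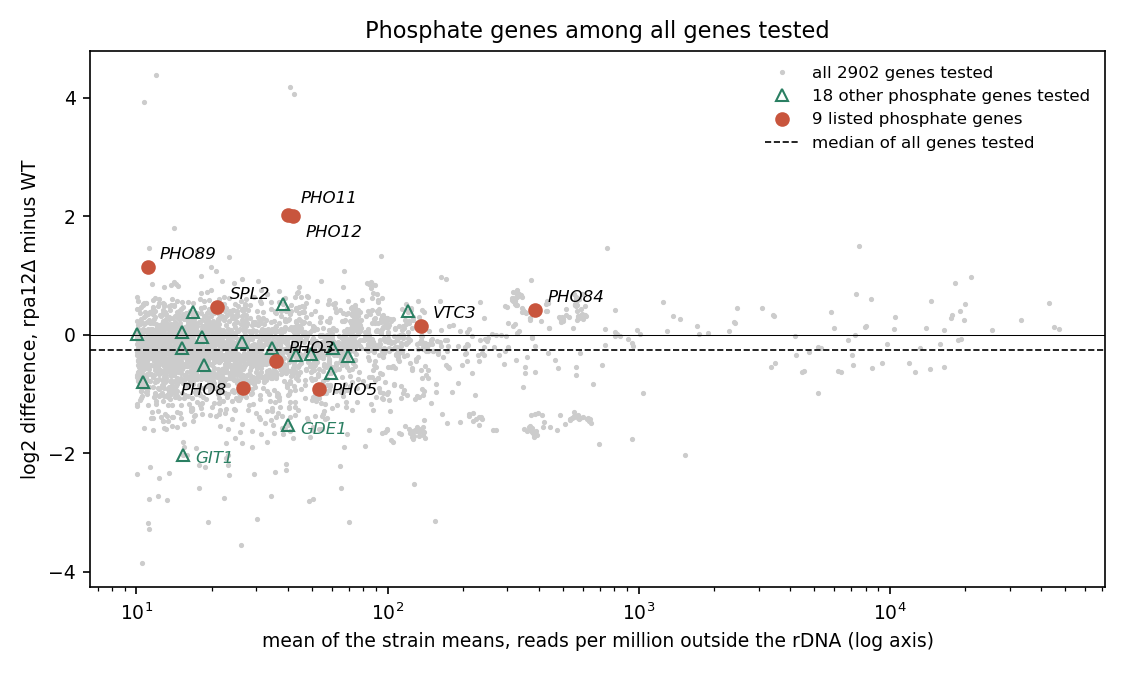
Log2 difference (*rpa12Δ* minus WT, vertical axis) against the mean level in RPM (log axis) for the 2902 genes tested (grey), the 18 other phosphate genes tested (green triangles) and the 9 listed genes (red points), with a dashed line at the median of −0.26. *PHO11* and *PHO12* lie at 2.01 and 2.00, *PHO5* and *PHO8* at −0.91, and the lowest triangles are *GIT1* at −2.03 and *GDE1* at −1.53.

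Both genes of the pathway list that fell most handle glycerophosphodiesters, lipid remnants that carry phosphate. *GIT1*, the transporter of glycerophosphoinositol, fell from 24.97 ± 4.66 to 5.58 ± 2.48 RPM (SD, n = 3), a log2 difference of −2.03 (SE 0.28, limma adjusted p = 5.03e-05). *GDE1*, the glycerophosphocholine phosphodiesterase, fell from 59.6 ± 5.64 to 20.2 ± 4.501 RPM (SD, n = 3), a log2 difference of −1.53 (SE 0.20, limma adjusted p = 2.29e-05). *VIP1*, a kinase gene whose product makes inositol pyrophosphates, signals of phosphate status, fell from 72.8 ± 11.9 to 46.1 ± 8.60 RPM (log2 difference −0.65, SE 0.19, limma adjusted p = 0.0155, n = 3). *PPN2*, a vacuolar enzyme that cuts polyphosphate, fell from 13.8 ± 2.55 to 7.44 ± 0.582 RPM (log2 difference −0.80, SE 0.25, limma adjusted p = 0.0244, n = 3). The calls of *GIT1* and *GDE1* were kept under all alternatives in which they were tested. That of *VIP1* was lost in 7 alternatives. Its log2 difference was −0.38 with reads in protein-coding genes as denominator, −0.27 with all reads, −0.36 with median-of-ratios size factors and −0.26 with distinct intervals counted once, and the call was also lost without WT replicate 1, without WT replicate 3 and without *rpa12Δ* replicate 2. That of *PPN2* was lost in 6, at −0.58 with protein-coding reads, −0.53 with size factors, −0.28 with distinct intervals and −0.77 when libraries were thinned to the smallest, and without *rpa12Δ* replicate 2 or *rpa12Δ* replicate 3.

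Of the core regulators of the pathway, *PHO4* and *PHO81* were tested and not called, and *PHO2*, *PHO80* and *PHO85* were under the filter and not tested. *PHO4*, the transcription factor, stood at 15.1 ± 6.04 RPM in WT and 15.2 ± 3.74 RPM in *rpa12Δ* (log2 difference 0.053, SE 0.28, limma adjusted p = 0.907, n = 3). *PHO81*, the inhibitor of the kinase and itself a target of Pho4, stood at 55.6 ± 9.51 and 43.6 ± 3.64 RPM (log2 difference −0.33, SE 0.18, limma adjusted p = 0.171, n = 3). *PHO80*, the cyclin, at 3.95 and 3.50 RPM, and *PHO85*, its kinase, at 6.17 and 7.72 RPM, overlapped between the strains. *PHO2*, the partner of Pho4, which was chosen after its values were seen, held 6.62, 11.9 and 6.01 RPM in WT and 3.29, 5.13 and 5.94 RPM in *rpa12Δ*, with every *rpa12Δ* library below every WT library by a narrow margin. The size of the standard errors leaves room for changes in *PHO4* and *PHO81* that these libraries could not show.

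Some further targets were chosen after their values were seen. *VTC1* and *VTC4* encode partners of Vtc3 in the polyphosphate complex, and neither passed the main test, with log2 differences of 0.52 (limma adjusted p = 0.0569) and 0.40 (limma adjusted p = 0.0856), although both passed it under the 4 other scalings above. *PHM8*, a phosphatase gene induced by phosphate starvation, was under the filter at 3.57 ± 0.746 RPM for WT and 9.81 ± 1.73 RPM for *rpa12Δ* (SD, n = 3), with no overlap, and was called higher in 4 alternatives that let it into the test, among them the fit without a filter (log2 difference 1.24, limma adjusted p = 0.00951). *PHM6*, another gene of the PHO regulon, held 0 reads for WT and 0.917 ± 0.503 RPM for *rpa12Δ* (SD, n = 3), which lies under the WT floor of 1.804 to 2.57 RPM, so that a difference was not resolved at this depth, although the fit without a filter called it higher (limma adjusted p = 0.0418).

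Neighbouring genes were measured to see whether whole stretches of chromosome moved with the 9 genes. Of the 15 nearest protein-coding genes 6 could be tested, 1 was higher and 1 lower. Over all 2902 genes tested, 5.38% were called higher and 25.7% lower. *ARO9*, an aromatic aminotransferase gene upstream of *SPL2* on the opposite strand, rose from 9.75 ± 2.54 to 18.4 ± 0.259 RPM (log2 difference 0.88, SE 0.24, limma adjusted p = 0.0113, n = 3). This call was lost without *rpa12Δ* replicate 2, and when libraries were thinned to the smallest (log2 difference 0.64, limma adjusted p = 0.180), where 0 neighbouring genes were higher and 2 lower. *PCA1*, a metal transporter gene whose 3′ end faces that of *PHO89*, fell from 64.5 ± 13.5 to 19.1 ± 7.87 RPM (log2 difference −1.75, SE 0.25, limma adjusted p = 5.45e-05, n = 3). The other 4 genes tested were not called, and the median of the 6 was −0.45.

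Because thiamine controls *PHO3*, a list of 10 thiamine genes was read as well. Only *THI7*, the thiamine transporter gene, passed the filter, at 22.8 ± 7.99 RPM in WT and 19.0 ± 8.38 RPM in *rpa12Δ* (log2 difference −0.28, SE 0.29, limma adjusted p = 0.481, unadjusted p = 0.347, n = 3). None of the list was therefore called, by limma or by voom. Without the filter 5 of the 10 were called, 2 higher and 3 lower, at levels near or under 10 RPM. The same fit called 1014 of all 6260 genes, 173 higher and 841 lower.

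The genes whose 6 library values ran most like those of *PHO84* were found by the smallest root mean square distance of log2(RPM + 1) from the WT mean of the gene, over 6 libraries. They were *NOP9*, a nucleolar protein gene, at a distance of 0.062, the small nucleolar RNA gene *SNR10* at 0.067 and the tRNA gene *YNCO0021C* at 0.069. The genes most like *PHO5* by the same measure were *GCV2*, a subunit of glycine decarboxylase, at 0.067, *PDR15*, a membrane transporter gene, at 0.077 and *ITC1*, a subunit of a chromatin remodeller, at 0.089. *GCV2* stood at 87.7 ± 7.30 RPM for WT and 45.1 ± 10.1 RPM for *rpa12Δ* (SD, n = 3), and *NOP9* at 18.7 ± 1.01 and 24.1 ± 1.13 RPM (SD, n = 3).

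**Figure D5:**
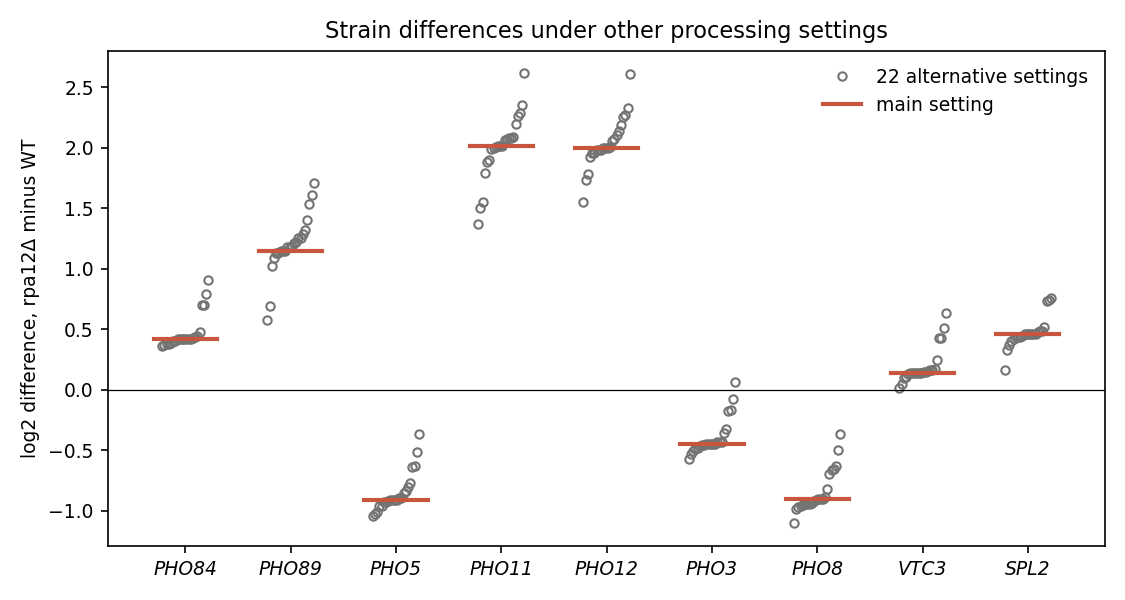
Log2 difference (*rpa12Δ* minus WT, vertical axis) of each of the 9 genes under the main setting (red bar) and 22 alternative settings (open circles). *PHO5* stayed between −1.04 and −0.37, *PHO8* between −1.10 and −0.37, *PHO11* between 1.37 and 2.61, *PHO12* between 1.55 and 2.61 and *PHO84* between 0.37 and 0.91, while *PHO3* crossed 0 at 0.062.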

How the data were processed

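Read ends of 6 Pol I NET-seq libraries (3 WT, 3 *rpa12Δ*, grouped by their genotype labels) were used. The authors deposited aligned reads, 1 line each with start, end, strand and a mapping quality score from 0 to 60. The submitters' processing notes name bcl2fastq 2.18.0.012, Trim Galore 0.4.1, BWA 0.6 and SAMtools 1.3.1. The rule for reads that fit several places and the genome build are not given in the sources used here. In all 6 libraries, reads piled up exactly at the R64 mature 3′ ends of the 25S, 5.8S and 18S rRNAs, so R64 gene coordinates (RefSeq, coding spans) were used. No sequence was read.

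Within 6389 genes, reads on the opposite strand were counted by their 5′ ends, which mark RNA 3′ ends (Python 3.11.15, numpy 2.4.6, pandas 2.3.3). Each library's counts were scaled to 1000000 of its reads that lay off the rDNA stretch of chromosome XII. The strain difference of log2(RPM + 1) was fitted by limma 3.58.1 (R 4.3.3) with a variance trend, for 2902 genes with a mean of at least 10 RPM, with Benjamini-Hochberg adjustment over all of them at 0.05. A change of a low gene is understated on that scale. The test was checked on simulated data.

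The 9 genes, the lists of pathway, neighbouring, thiamine and mating-type genes and the tests were chosen with earlier results of these data known. The named genes are the 9 genes, every gene of a list past the threshold (at most 8 by size), *PHO4*, *PHO80*, *PHO85* and *PHO81*, the 3 genes most like *PHO84* and *PHO5*, and *RPA12*. Genes chosen later are described so. The alternatives tried other pseudocounts (0.1 and 10 RPM), filters, denominators and scalings, and changed the reads used, the depth, the test (voom) and the libraries. Figures were drawn with matplotlib 3.10.9. The study describes the libraries as biological triplicates, and the labels only number them.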

Additional observations from a re-analysis of the deposited data

Results flagged for a closer look

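On the antisense strand or in the 100 nt beside the gene, outside the counted reads, 4 of the listed genes had more than 3 reads in every *rpa12Δ* library and a level above that of every WT library. Only results higher in *rpa12Δ*, the strain with the deeper libraries, were looked for. The share of all genes with such a result was not computed, so nothing is read from this count. Antisense reads within *PHO5* stood at 2.13 RPM in WT and 4.14 RPM in *rpa12Δ*. Sense reads in the 100 nt before *PHO11* were 0 in WT and 4, 4 and 8 in *rpa12Δ*, a mean of 1.13 RPM that lies under the WT floor of 1.804 to 2.57 RPM, so that a difference was not detectable at this depth. In the 100 nt after *PHO12* the level was 1.27 RPM in WT and 5.47 RPM in *rpa12Δ*. In the 100 nt after *VTC3* it was 1.76 RPM in WT and 3.64 RPM in *rpa12Δ*, from 8 and 52 reads. *PHO89* was also above WT in every *rpa12Δ* library in the 100 nt after the gene, but with too few reads in 1 of them, at 0 reads in WT and 5, 5 and 2 in *rpa12Δ*, a mean of 0.841 RPM that lies under the WT floor.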

How the results depend on the processing

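Of the 9 listed genes, 8 kept their direction under the 22 alternatives, and *PHO3* turned to 0.062 with distinct intervals counted once. The median of the 9 genes (0.42) was 0.33 with a pseudocount of 10 RPM, 0.63 with distinct intervals counted once, 0.16 without each gene's highest position (an alternative chosen after seeing the data), and 0.70, 0.74 and 0.70 with reads in protein-coding genes as denominator, with all reads as denominator and with median-of-ratios size factors. Those 3 scalings moved the median of all genes from −0.26 to 0.012, 0.19 and 0.020, and distinct intervals moved it to 0.17. *PHO81* turned to 0.034 with all reads as denominator and to 0.21 with distinct intervals. *PHO4* turned to −0.073 at a mapping quality of at least 10, −0.22 when thinned to the smallest library, −0.20 without WT replicate 2 and −0.11 without *rpa12Δ* replicate 1. The cause of these changes was not tested.

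Of the thiamine genes 5 of 10 were called with no filter, 4 of 8 with a mean of at least 2 RPM, 3 of 7 with protein-coding reads as denominator and 2 of 8 with distinct intervals. Over all genes these settings called 1014 of 6260, 1105 of 5296, 1087 of 5132 and 1290 of 5270. With all reads as denominator, only 1 neighbouring gene, *PCA1*, passed the filter, and it was called, beside 652 of 1237 genes overall in that setting. Leaving out each library in turn gave a median of the 9 genes of 0.38 to 0.44, 2 to 8 pathway genes called (2 higher and 2 lower without WT replicate 1, 2 without WT replicate 3 or without *rpa12Δ* replicate 2, 8 without *rpa12Δ* replicate 1), 1 to 3 neighbouring genes, 0 thiamine genes and 531 to 1242 of all genes, with 531 without *rpa12Δ* replicate 2. Where 2 libraries of a strain were left, limma's pooled spread served for both strains.

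Libraries of the same number in the 2 strains deviated together by correlations of 0.17, 0.01 and −0.02 over genes. Libraries of unlike number gave −0.23 to 0.24, a range that holds all of these values. The labels give libraries of the same number nothing in common but the number. These correlations cannot show whether they shared anything more. With the replicate block 6 pathway genes were called (2 higher, 4 lower), 3 neighbouring genes, 0 thiamine genes and 1113 of all genes against 903. Depth limits the low genes most, since 3 reads in WT equal 1.804 to 2.57 RPM.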
